A study of Homo sapiens with 2 samples.

Results

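The SLIT, ROBO and UNC5 genes are a set of 10 axon guidance genes, here SLIT1, SLIT2, SLIT3, ROBO1, ROBO2, ROBO3, ROBO4, UNC5B, UNC5C and UNC5D, out of 41582 genes with a symbol in the table. They were chosen by family name, with the values of SLIT3 and UNC5D in these libraries already known, so their levels and differences are given as a description and no test was made. The cells were U87, a human glioblastoma cell line labelled wild type, grown in RPMI medium with fetal bovine serum. mRNA was sequenced in 1 library after 72 h in DMSO, the solvent, and in 1 library after 72 h in the curcumin analog CCA-1.1. The dose used for sequencing was not given in the sources used here. With no replicates, every difference below sets 1 library against the other and says nothing of the spread between cultures.

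SLIT proteins are large secreted ligands, and ROBO proteins are single-pass receptors of the immunoglobulin superfamily that turn growth cones and migrating cells away from SLIT. UNC5 proteins are receptors for netrins that mediate repulsion, and they carry a death domain through which they can promote apoptosis when no netrin is bound. Outside the nervous system the same genes act in blood vessel patterning, and SLIT-ROBO signaling has been studied in the migration of glioma cells.

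Values are in TPM, a unit of transcript abundance scaled by transcript length and by library size, so levels of different genes can be compared. That comparison is less certain for very short transcripts. TPM does not keep the read depth, so the depth of both libraries is unknown and no counting interval can be given. The level of a gene is the sum over its transcripts. A difference is the log2(TPM + 1) value in the CCA-1.1 library minus that in the DMSO library, which makes low genes look less different than they are. A difference above 1 or below -1 is called past 2-fold. Across 7906 protein-coding genes whose mean reached 10 TPM, the middle difference was 0.0039, and the central 90% of genes ran from -0.29 to 0.31. The line was checked against marker genes: VIM was at 3217 TPM with DMSO against 3106 TPM with CCA-1.1, and CD44 at 607.4 TPM and 472.6 TPM, while the glial markers GFAP (0.41 TPM and 0.57 TPM) and S100B (0 in both) were at or near 0 and the glial lineage markers OLIG2 (5.64 TPM and 7.03 TPM) and SOX2 (1.87 TPM and 1.45 TPM) were low but above 1 TPM. Of 11 markers of neurons, endothelium, leukocytes and epithelium, 5 averaged at least 1 TPM, among them all 3 neuron markers. SNAP25 was at 22.03 TPM with DMSO against 16.8 TPM with CCA-1.1, SYT1 at 11.38 TPM and 11.54 TPM, and RBFOX3 at 1.83 TPM and 2.45 TPM. The others were the endothelial marker PECAM1, given below, and the macrophage marker CD68. CD68 was at 494.2 TPM with DMSO against 397.1 TPM with CCA-1.1, whereas the leukocyte marker PTPRC was below 0.1 TPM in both libraries.

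A microRNA gene inside SLIT3 is shown first, because it had the highest TPM of the transcribed units with their own symbol within these genes. MIR218-2 lies within SLIT3 at chr5:168768146-168768255 on the minus strand of GRCh38.p14, the strand of SLIT3 itself, and MIR218-1 lies within SLIT2 at chr4:20528275-20528384 on the plus strand. The RefSeq hairpins are printed with both mature arms in capitals, followed by the shared mature miR-218-5p with its seed (bases 2 to 8) in capitals.
MIR218-2 hairpin: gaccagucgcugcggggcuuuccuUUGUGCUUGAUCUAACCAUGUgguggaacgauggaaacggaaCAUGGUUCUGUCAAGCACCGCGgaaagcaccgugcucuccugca
MIR218-1 hairpin: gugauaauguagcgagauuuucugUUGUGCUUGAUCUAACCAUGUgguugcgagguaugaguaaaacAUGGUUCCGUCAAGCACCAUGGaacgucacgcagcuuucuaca
hsa-miR-218-5p: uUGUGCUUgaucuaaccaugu
The hairpins are each 110 bases long, have the same base at 70 positions when laid side by side, and give the same 5p arm. The row of MIR218-2 was at 61.4 TPM with DMSO against 94.4 TPM with CCA-1.1, a ratio of 1.54, while the row of MIR218-1 was listed at 0 in both libraries. Of the other microRNA genes within the 10 genes, MIR585 in SLIT3 and MIR3923 in ROBO1 were also at 0 in both libraries, although their host genes were above 30 TPM. The value of a hairpin row stands for fragments of RNA from the locus, not for the mature microRNA, which was not measured. Because TPM is scaled by length, few fragments can give a row of 110 bases a high TPM. How many fragments lay behind the MIR218-2 row is unknown, so its level and ratio are uncertain.

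SLIT3 was the only ligand gene above 1 TPM in U87 cells. It was at 43.6 TPM with DMSO against 88.5 TPM with CCA-1.1, a TPM ratio of 2.03 and a log2(TPM + 1) difference of 1.01. SLIT1, a ligand mainly of the nervous system, was at 0.04 TPM and 0.07 TPM. SLIT2, the family member most studied in cell migration, was at 0.09 TPM in both libraries. SLIT3 made up 99.7% of the summed ligand TPM with DMSO and 99.8% with CCA-1.1. In bulk RNA such as this, more cells expressing a gene and more RNA per cell cannot be told apart.

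The SLIT3 gene (Entrez identifier 6586) lies at chr5:168661740-169301139 of GRCh38.p14, and the table lists 3 transcripts of it. Nearly all of the signal sat in 1 transcript, the predicted model XM_017009779.1, at 43.5 TPM with DMSO against 88.3 TPM with CCA-1.1. This model held 99.7% of the SLIT3 TPM in both libraries. The curated NM_001271946.2 was at 0.11 TPM and 0.26 TPM, and the curated NM_003062.4 was listed at 0 in both. With curated transcripts alone, SLIT3 would thus be at 0.11 TPM and 0.26 TPM, with a difference of 0.18, and would not pass 2-fold. Of those 7906 protein-coding genes, 5 (0.0632%) were past 2-fold higher in CCA-1.1, and SLIT3 was the fifth of them, close to the threshold.

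The annotated gene start of SLIT3 and that of SLIT2 are shown to set the expressed ligand gene beside the one near 0. Whether XM_017009779.1, which held nearly all of the SLIT3 TPM, starts in this window was not checked. Each RefSeq window runs from 250 bases before to 50 bases after the start of the gene in GRCh38.p14, written along the gene's strand with each CpG in capitals.
SLIT3, chr5:169301090-169301389, minus strand: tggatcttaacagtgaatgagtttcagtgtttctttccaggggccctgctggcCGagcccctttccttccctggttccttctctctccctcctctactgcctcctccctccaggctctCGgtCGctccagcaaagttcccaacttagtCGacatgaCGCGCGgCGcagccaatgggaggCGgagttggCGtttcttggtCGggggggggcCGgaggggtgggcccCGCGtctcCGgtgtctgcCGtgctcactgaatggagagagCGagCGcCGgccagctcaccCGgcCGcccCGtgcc
SLIT2, chr4:20251655-20251954, plus strand: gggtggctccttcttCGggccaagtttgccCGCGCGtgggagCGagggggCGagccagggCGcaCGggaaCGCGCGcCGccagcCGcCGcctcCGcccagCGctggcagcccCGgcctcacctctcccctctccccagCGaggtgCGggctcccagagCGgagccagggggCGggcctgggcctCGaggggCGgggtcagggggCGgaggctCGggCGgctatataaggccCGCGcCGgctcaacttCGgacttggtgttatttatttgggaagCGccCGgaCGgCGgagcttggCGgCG
The SLIT3 window holds 22 CpG and the SLIT2 window 36, against a median of 14 over 35116 RefSeq windows of the same length. The window of SLIT1 holds 27 CpG and that of UNC5C 22, and both genes were near 0. The ROBO3 windows hold 28, 21 and 19 CpG, with the gene at 11.64 TPM in DMSO. Those of ROBO2 hold 7 and 31, with the gene at 0.64 TPM, and that of ROBO4 holds 11, with the gene at 0.52 TPM. Whether CpG number goes with level was not tested. The first of the windows of ROBO1, by coordinate, holds 15 CpG and the second 11. The motif TATAAA was searched on both strands, and none of the 12 windows of the 8 members with an entry held it, while 11.5% of all windows did. Only these exact letters were counted, so the related form TATATAA in the SLIT2 window printed above was not, and a TATA box is not excluded. UNC5B and UNC5D had no entry. DNA methylation was not measured in this series.

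Of the ROBO receptors, ROBO1 and ROBO3 were above 1 TPM. ROBO1, a SLIT receptor used in axon pathfinding and cell migration, was at 43.3 TPM with DMSO against 33.6 TPM with CCA-1.1, a difference of -0.36. This difference is below the lower bound of -0.29 given above and is not past 2-fold. ROBO3, which in mammals binds NELL2 and has little affinity for SLIT, was at 11.6 TPM and 11.98 TPM, a difference of 0.04. ROBO2, a SLIT receptor of neurons and the kidney, was at 0.64 TPM with DMSO against 0.34 TPM with CCA-1.1. ROBO4, the endothelial receptor, was at 0.52 TPM and 0.26 TPM, and of the 3 endothelial markers CDH5 was at 0.40 TPM and 0.33 TPM, CLDN5 at 0.11 TPM and 0.03 TPM and PECAM1 at 3.41 TPM and 2.71 TPM.

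In DMSO the ligand SLIT3 and the receptor ROBO1 stood at nearly the same level, with a TPM ratio of 1.01. In CCA-1.1 the ratio was 2.64. Both ratios rest on the predicted SLIT3 model XM_017009779.1. Over curated transcripts alone, SLIT3 was at 0.11 TPM with DMSO and 0.26 TPM with CCA-1.1, far below ROBO1 at 23.4 TPM and 20.9 TPM. With 1 library per condition the order of neighbors cannot be set against any spread. By level in DMSO, SLIT3 and ROBO1 were followed by UNC5B, ROBO3 and UNC5D, and the remaining 5 genes were below 1 TPM. In CCA-1.1 the order of the first 4 was the same, and UNC5D had joined those below 1 TPM.

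**Figure D1:**
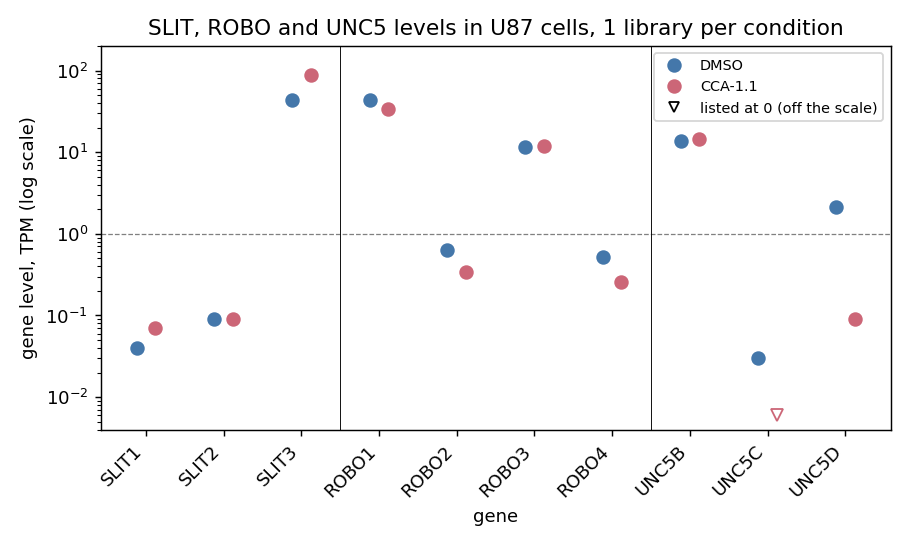
Gene levels in TPM on a log axis for the 10 genes, grouped as ligands, ROBO receptors and UNC5 receptors, with 1 point per library and a dashed line at 1 TPM; open triangles mark a value listed at 0. SLIT3 (43.6 and 88.5 TPM), ROBO1, ROBO3 and UNC5B lie above 10 TPM in both libraries, and UNC5D crosses the line from 2.12 to 0.09 TPM.

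ROBO1 (Entrez identifier 6091) lies at chr3:78597239-79767998, and 9 of its 18 listed transcripts were above 0 in a library. The curated NM_133631.4 was at 19.5 TPM with DMSO against 18.2 TPM with CCA-1.1, and the predicted XM_017006985.2 was at 18.0 TPM and 11.6 TPM. The predicted transcript thus accounted for 6.43 of the 9.69 TPM by which ROBO1 was lower in CCA-1.1. The curated NM_001145845.2 was at 3.89 TPM and 2.67 TPM, and the curated NM_002941.4 was listed at 0 in both libraries. Of the 9 transcripts, 7 were lower and 2 were higher in CCA-1.1, and none was past 2-fold. Over the curated transcripts alone, ROBO1 was at 23.4 TPM and 20.9 TPM, a difference of -0.16.

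ROBO3 (Entrez identifier 64221), at chr11:124865432-124881471, had nearly the same total in both libraries and a different mixture of transcripts. The curated coding transcript NM_001370361.1 was at 5.31 TPM with DMSO against 2.08 TPM with CCA-1.1, a difference of -1.03, and its share of the gene was 45.6% with DMSO and 17.4% with CCA-1.1. The transcript NR_163410.1, which RefSeq lists as non-coding, was at 0.95 TPM and 5.23 TPM, a difference of 1.68, with shares of 8.16% and 43.7%. A further non-coding transcript, NR_163412.1, was at 1.91 TPM and 0.27 TPM, a difference of -1.20. The remaining ROBO3 transcripts with at least 1 TPM in a library were the coding NM_001370357.1, at 1.18 TPM and 1.79 TPM, and the non-coding NR_163414.1, at 1.29 TPM and 0.25 TPM, and NR_163411.1, listed at 0 with DMSO and at 1 TPM with CCA-1.1. None of these 3 was past 2-fold on the log2(TPM + 1) scale. Of the 12 ROBO3 transcripts above 0, 6 were higher and 6 were lower in CCA-1.1. In sum, the former were higher by 6.82 TPM and the latter lower by 6.48 TPM. Together the non-coding transcripts held 39.5% of the ROBO3 TPM in DMSO and 61.6% in CCA-1.1. Reads shared by several transcripts were assigned by Kallisto's estimation, and its part in this exchange was not tested.

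The UNC5 receptors differed among themselves. UNC5B, the netrin receptor of the family known from blood vessels, was at 13.8 TPM with DMSO against 14.7 TPM with CCA-1.1, a difference of 0.09. It (Entrez identifier 219699) lies at chr10:71212570-71302864, and NM_170744.5 held 85.2% of its TPM in DMSO and 90.9% in CCA-1.1. The second transcript, NM_001244889.2, was at 2.04 TPM and 1.33 TPM. UNC5C, a receptor of migrating neurons, was at 0.03 TPM in DMSO and listed at 0 in CCA-1.1.

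UNC5D, a netrin receptor also bound by FLRT proteins, was at 2.12 TPM with DMSO against 0.09 TPM with CCA-1.1, a difference of -1.52. With a pseudocount of 0.1 TPM in place of 1 TPM the difference was -3.55. The gene lies on chromosome 8, and 3 of its 6 listed transcripts were above 0. Nearly all of the difference came from 1 of them, NM_001322818.2, at 2.02 TPM in DMSO and listed at 0 in CCA-1.1. XM_047421380.1 was at 0.07 TPM in both libraries, and XM_047421382.1 was at 0.03 TPM and 0.02 TPM. Such a pattern was not rare at this level: of 6181 transcripts between 1.5 and 2.5 TPM in DMSO, 259 (4.19%) were listed at 0 in CCA-1.1, and of 6457 transcripts in that range in CCA-1.1, 285 (4.41%) were listed at 0 in DMSO. Of 1290 genes between 1.5 and 2.5 TPM in DMSO, 28 (2.17%) were past 2-fold lower. LOC101929550, a long non-coding gene within UNC5D, was at 1.36 TPM with DMSO against 1.78 TPM with CCA-1.1.

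Of the 10 genes, 1 was past 2-fold higher in CCA-1.1 (SLIT3) and 1 was past 2-fold lower (UNC5D), and among all 41582 genes the shares were 0.815% and 0.714%. Only 5 of the 10 averaged at least 1 TPM, and UNC5D reached it only through the DMSO library, so a large difference in it was bound to be lower in CCA-1.1. Among the 15485 genes at that level, 1.89% were past 2-fold higher and 1.67% past 2-fold lower. Since the set was proposed with these values known, nothing is read from its count.

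**Figure D2:**
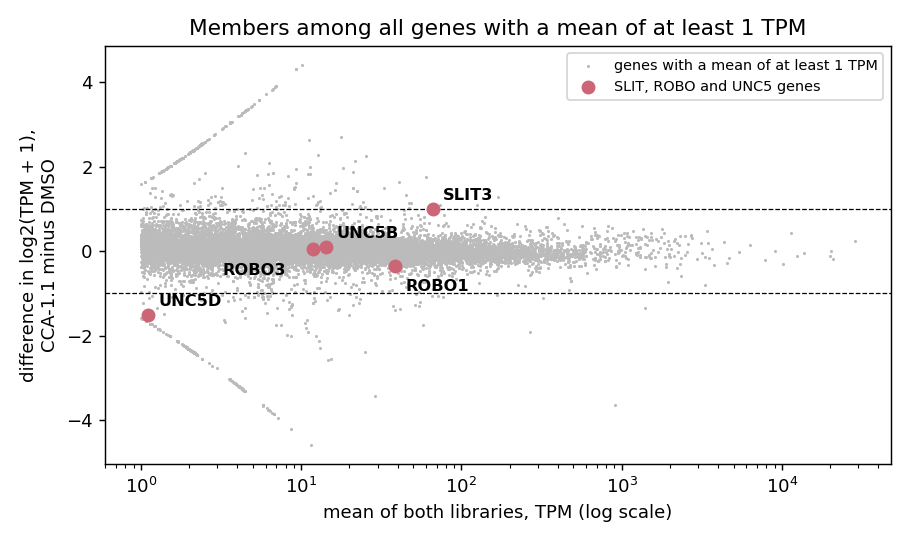
Difference in log2(TPM + 1), CCA-1.1 minus DMSO, against the mean level in TPM on a log axis, for the 15485 genes averaging at least 1 TPM (gray) and the 5 members among them (red), with dashed lines at 2-fold. SLIT3 lies on the upper line at 1.01, ROBO1, ROBO3 and UNC5B lie between the lines, and UNC5D lies at -1.52 beside the diagonal edge formed by genes listed at or near 0 in CCA-1.1.

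The table lists 101 transcripts of the 10 genes, of which 60 were at 0 in both libraries. 24 were above 0 in both libraries, 10 in DMSO alone and 7 in CCA-1.1 alone. At least 1 TPM in a library was reached by 13 transcripts, of which 2 were past 2-fold higher and 3 past 2-fold lower in CCA-1.1. Over the 39092 transcripts of the table with at least 1 TPM in a library, the shares were 5.31% and 4.85%. The 5 transcripts are XM_017009779.1 of SLIT3, the 3 of ROBO3 named above and NM_001322818.2 of UNC5D. ROBO2 had the most listed transcripts, 41, and 37 of them were at 0 in both libraries.

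**Figure D3:**
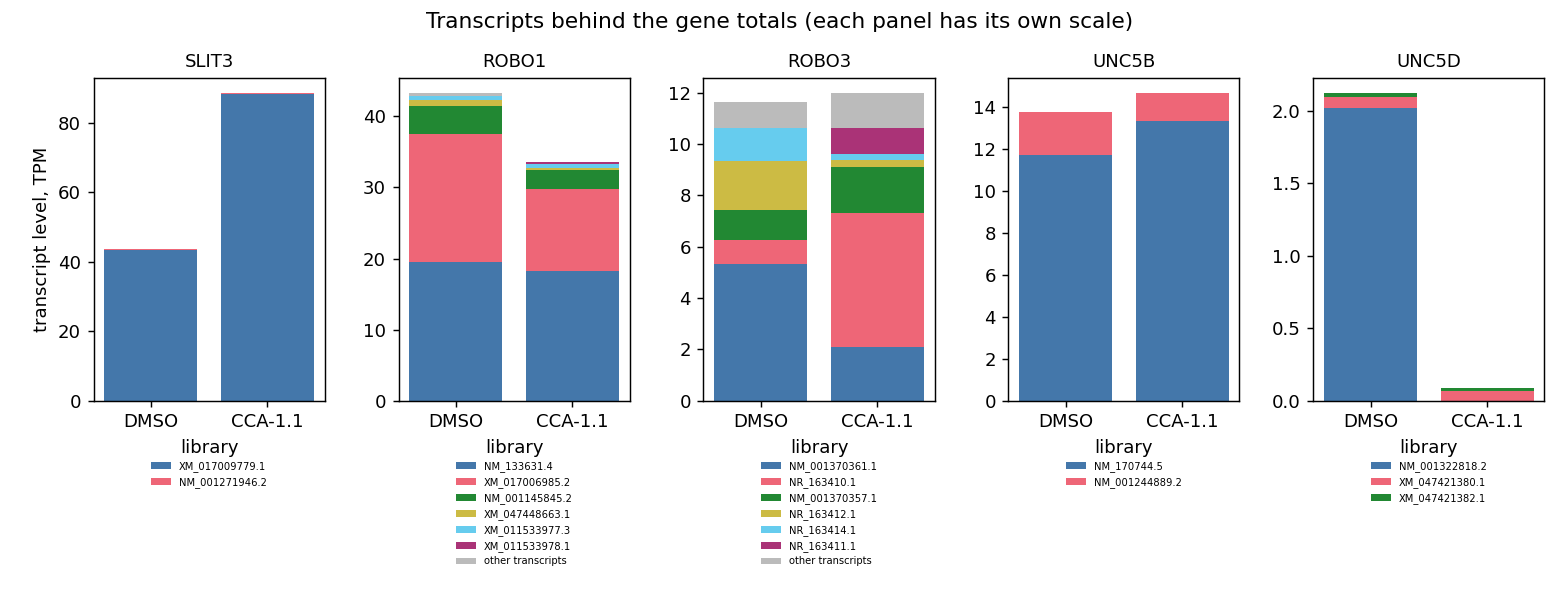
Stacked bars of transcript levels in TPM, starting at 0, for the 5 genes averaging at least 1 TPM, with 1 bar per library and a separate scale in each panel. SLIT3 is almost entirely 1 transcript in both bars, the ROBO3 bars have nearly equal height (11.6 and 11.98 TPM) and different parts, and the main UNC5D transcript (2.02 TPM) is missing from the CCA-1.1 bar.

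Other transcribed units lie within or overlap the 10 genes. RefSeq places 21 of them with a row in the table there, of which 9 were at 0 in both libraries. Within SLIT3, the long non-coding LOC105377712 was at 9.38 TPM with DMSO against 9.91 TPM with CCA-1.1, so it differed less between the libraries than SLIT3 and MIR218-2. SLIT3-AS2 was at 0.44 TPM and 0.84 TPM, LOC105377713 was at 0 and 0.17 TPM, and SLIT3-AS1, MIR585, LOC107986472 and LOC124901130 were at 0 in both. LOC107984406, a long non-coding gene that overlaps ROBO4 and reaches beyond it, had the largest difference of the 21, 0.92, at 0.14 TPM with DMSO against 1.15 TPM with CCA-1.1. UNC5B-AS1, which lies within UNC5B, was at 5.52 TPM with DMSO against 9.37 TPM with CCA-1.1, a ratio of 1.70, against 1.07 for UNC5B. SLIT2-IT1, SLIT1-AS1, MIR3923 in ROBO1 and LOC124900736 in UNC5C were at 0 in both libraries, and the readthrough transcript ARHGAP19-SLIT1 was at 1.26 TPM and 0.75 TPM. LOC101927374 in ROBO1 was at 0.57 TPM and 0.27 TPM, and LOC102724949 and LOC124900544 in ROBO2 and LOC112268061 in UNC5B were below 0.1 TPM in both libraries. Whether the counting used the strand is not given in the sources used here, and without it reads of a gene and of its antisense partner cannot be told apart.

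The genes next to SLIT3 on chromosome 5 differed in both directions, each by less than SLIT3. On the side of lower coordinates, PANK3, a pantothenate kinase, was at 39.1 TPM with DMSO against 52.8 TPM with CCA-1.1, a difference of 0.42. This is in the direction of SLIT3 and above the upper bound of 0.31 given above. RARS1, an arginyl-tRNA synthetase, differed by 0.15, and FBLL1 was near 0. On the other side, SPDL1 differed by -0.07, DOCK2 by -0.13 and INSYN2B by -0.56. Around UNC5B on chromosome 10, PCBD1 differed by 0.46, SLC29A3 by 0.34, CDH23 by 0.19 and SGPL1 by -0.15, and TBATA and C10orf105 were below 0.1 TPM in both libraries. None of these 12 neighbors was past 2-fold.

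miR-218 is known to act on ROBO1 and ROBO2, so the letters of its site were looked for in the 3′ UTRs of all 10 genes, in the MANE Select transcripts of GENCODE v44 mapped to GRCh37. The MANE Select transcripts were taken whatever their level here. Whether the transcripts that held the TPM, such as the predicted XM_017009779.1 of SLIT3, carry the same UTRs was not checked. The search used AAGCACA, the reverse complement of the seed of miR-218-5p printed above, on the transcript strand. ROBO1 held 1 match, at position 971 of 1674 counted from the stop codon, shown here with the match in capitals.
ROBO1 match: tttggttttaaAAGCACAatcactaaactt
ROBO2 held 2 matches, SLIT2 held 2, and SLIT3 and UNC5D held 1 each, while SLIT1, ROBO3, ROBO4, UNC5B and UNC5C held none. Of all 18645 UTRs, 14.2% held the letters. The share rises with length: among UTRs within 20% of the length of each gene's own, it was 14.6% for SLIT2, 15.6% for ROBO1, 32.1% for ROBO2, 34.9% for SLIT3 and 42.0% for UNC5D. For the genes with no match it was between 1.54% (ROBO3) and 46.8% (UNC5C). A match of letters is no evidence of use, the mature microRNA was not measured, and its part in the lower ROBO1 level was not tested.

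The remaining genes of the netrin system were compared as a list of 23, of which 11 averaged at least 1 TPM and none was past 2-fold. NTN1, the netrin that gave the family its name, was at 0.02 TPM and 0.01 TPM. NTN4, a netrin of basement membranes, was at 14.4 TPM with DMSO against 18.2 TPM with CCA-1.1, a difference of 0.32, and NTN5 was at 6.12 TPM and 7.12 TPM. The netrin receptor DCC was at 1.33 TPM and 1.12 TPM, and its relative NEO1 at 4.39 TPM and 3.95 TPM. UNC5A, the remaining UNC5 gene, was at 0 and 0.05 TPM. FLRT2, a membrane ligand of UNC5 receptors, had the lowest difference of the list at -0.45, at 8.75 TPM with DMSO against 6.16 TPM with CCA-1.1. ADGRL2, a latrophilin, differed by -0.43. RGMB differed by -0.12 and MAGED1, which binds UNC5 receptors inside the cell and was the most abundant gene of the list, by -0.15. The median difference of the 11 genes was -0.12, against 0.03 over the 15485 genes at that level.

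The list of 38 effectors and cofactors of ROBO signaling was mostly expressed, with 35 genes averaging at least 1 TPM and none past 2-fold. SRGAP1, which binds the tail of ROBO1, was at 10.3 TPM with DMSO against 10.9 TPM with CCA-1.1, SRGAP2 at 42.3 TPM and 41.0 TPM and SRGAP3 at 1.68 TPM and 1.98 TPM. SRGAP2B and SRGAP2C are near-identical copies of part of SRGAP2, so the division of reads among them is uncertain. The actin monomer binding proteins PFN1 and PFN2 and the GTPase RHOA were the most abundant, with differences of -0.15, -0.17 and -0.13. EVL, an Ena/VASP protein, had the highest difference at 0.52, at 4.13 TPM with DMSO against 6.34 TPM with CCA-1.1. The heparan sulfate proteoglycan SDC4 had the lowest at -0.54, with 23.9 TPM and 16.2 TPM, and GPC1, a glypican that binds SLIT, differed by 0.20. The kinase ABL1, which acts on the tail of ROBO receptors, differed by -0.37. The ROBO3 ligand NELL2 was at 1.73 TPM and 1.89 TPM. The median of the list was -0.02.

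The other guidance families also held no gene past 2-fold. Of 31 semaphorins, plexins and neuropilins, 23 averaged at least 1 TPM, none was past 2-fold, and the median difference was -0.06. 19 of the 23 were lower in CCA-1.1 and 4 were higher, against 6777 lower of the 15485 genes at that level. Several of the 19 differed little, such as SEMA4C with -0.01 and PLXNB3 with -0.02, so nothing is read from this count of signs. Also among the 19 were the secreted SEMA3C (110.5 TPM with DMSO, 83.5 TPM with CCA-1.1) and the receptors NRP1 with -0.18 and NRP2 with -0.29. PLXNA2 had the lowest difference, -0.47. PLXNB2 was at 126.4 TPM and 126.0 TPM. SEMA4D had the highest difference, 0.21, followed by SEMA4A with 0.17. Of 22 ephrins and Eph receptors, 9 averaged as much, none was past 2-fold, and the median was 0.04. EPHB4 had the highest difference at 0.28 and EPHA2 the lowest at -0.16, and the ligands EFNB2 and EFNA3 differed by 0.20 and -0.05. Over all genes at that level, 3.56% were past 2-fold in either direction, and over the 78 genes of the 4 lists the difference farthest from 0 was that of SDC4.

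**Figure D4:**
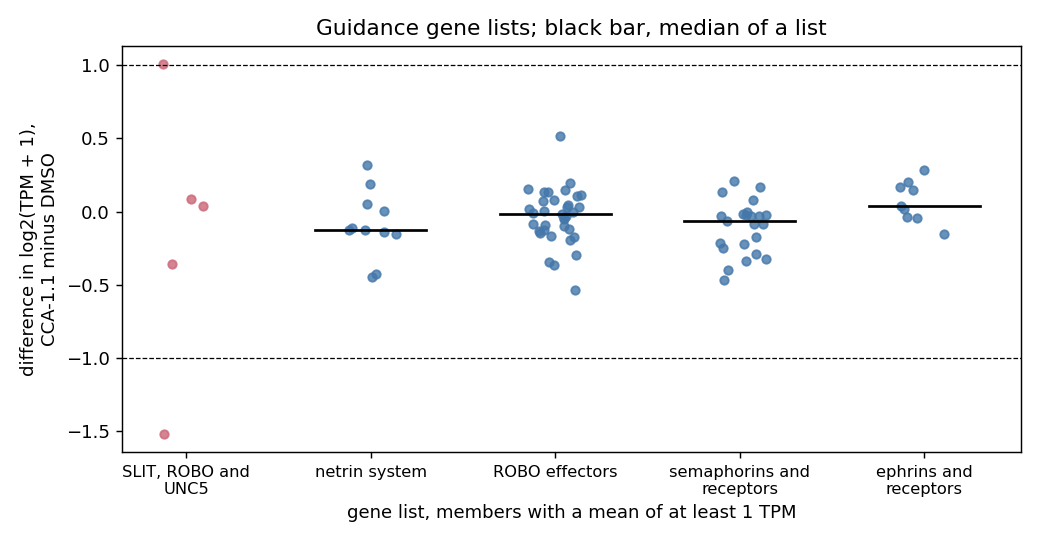
Differences in log2(TPM + 1), CCA-1.1 minus DMSO, for the members averaging at least 1 TPM (red) and for the 4 other guidance lists (blue), with 1 point per gene, a black bar at the median of each list and dashed lines at 2-fold. All 78 genes of the other lists lie between -0.54 and 0.52. SLIT3 and UNC5D lie outside that range, but their values were known when the set was chosen, so nothing is read from this contrast. UNC5D averaged at least 1 TPM only through the DMSO library.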

How the data were processed

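mRNA of U87 cells was enriched and sequenced by the authors on an Illumina instrument, with read quality checked by FastQC 0.11.9 and MultiQC 1.1 per the labels. The authors ran Kallisto with the human genome release GRCh38.p14 as reference and deposited TPM with 2 decimals, 1 column per library. Options for bias correction and strand were not given in the sources used here. TPM keeps no read depth, so no count test and no interval was possible.

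Transcripts were matched to gene symbols through RefSeq of GRCh38.p14 with versions ignored (169966 of 177816) and TPM was summed per gene. Differences of log2(TPM + 1) were taken with no test, since there was 1 library per condition. The calculation was tested on simulated data. The simulation held only genes averaging at least 10 TPM and changes well past 2-fold, so it did not cover SLIT3 near the threshold or the low UNC5D. The 10 genes, the gene lists, the alternatives and the rule for named genes were chosen with earlier results of these data known. That rule took all members, their transcripts with at least 1 TPM or past 2-fold, units within them, the 3 nearest protein-coding genes on each side of SLIT3 and UNC5B, and from each list the 3 most abundant genes and the 2 highest and 2 lowest differences. DCC, NEO1, NTN1, UNC5A, NELL2, the SRGAP genes and LOC genes were named for their roles or place with their values seen. Alternatives were pseudocounts of 0.1 and 0.01 TPM, median-ratio scaling, a minimum mean of 1 TPM, curated transcripts only and versioned identifiers only. Python 3.11.15, numpy 2.4.6, pandas 2.3.3 and matplotlib 3.10.9 were used.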

Additional observations from a re-analysis of the deposited data

How the results depend on the processing

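No paired analysis was possible because each condition had a single library, and none could be left out. Median-ratio scaling, a minimum mean of 1 TPM and versioned identifiers only moved no difference by more than 0.196, the SD over the 7906 protein-coding genes described above, and no count by over 1.5 times. These outcomes were largely fixed in advance. The median ratio was 1.003, a minimum mean only drops entries, and all 101 member transcripts matched by versioned identifier. No called difference changed its sign, which a pseudocount cannot alter.

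Curated transcripts only gave 0.18 for SLIT3 and -0.16 for ROBO1, and 0 members past 2-fold higher in CCA-1.1; by construction this drops the predicted models that held most of SLIT3 and part of ROBO1. The share of NM_133631.4 in ROBO1 was then 83.4% in DMSO and 87.2% in CCA-1.1, against 45.1% and 54.3% over all transcripts. UNC5D was at -3.55 with a pseudocount of 0.1 TPM and at -4.41 with 0.01 TPM. With a pseudocount of 0.1 TPM, the member transcripts past 2-fold were 7 higher and 11 lower in CCA-1.1. With 0.01 TPM they were 11 higher and 16 lower, and 2 members were past 2-fold lower (UNC5C with 0.03 TPM and 0 was added). A smaller pseudocount calls more entries near 0 past 2-fold in any gene set. The shares over all transcripts and genes were not computed with these pseudocounts, so nothing is read from these counts. SLIT3 lay between 1.002 and 1.02 under all alternatives but curated transcripts only. The unknown depth limits every value below 1 TPM.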
